A study of Rattus norvegicus with 2 samples.

Results

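Fatty acid oxidation genes, the ketogenesis enzyme gene Bdh1 and the genes of peroxisomes were followed in primary rat hepatocytes with and without thyroid hormone. The set was defined by gene symbol: 33 symbols of the pathway were listed, and every symbol that starts with Pex and a digit, the peroxins, was added. Such a symbol stood on 61 of 31038 probe sets of the deposited data, and they stood for 46 of 13510 genes with 1 symbol. Of the 33 listed symbols 29 were matched, and 17 peroxin symbols completed the set.

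The cells were hepatocytes, the parenchymal cells of the liver, from male SD rats, kept on collagen-coated plates in a basal hepatocyte medium with growth factors. The first group is labelled only as control, and the T3 group received triiodothyronine (T3), the receptor-active thyroid hormone, at 1 nM for 24 h. There was 1 array per group, so no difference was tested, no value has a replicate error, and how many animals gave the cells is not given in the sources used here. In RNA of a whole culture, fewer cells of a type and less RNA per cell cannot be told apart.

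Fatty acids are activated to acyl-CoA, pass into mitochondria as carnitine esters and are shortened there by a spiral of dehydrogenation, hydration, dehydrogenation and thiolysis, whose electrons leave through the electron transfer flavoprotein. In liver much of the acetyl-CoA formed is made into ketone bodies for other organs. Peroxisomes shorten very long and branched fatty acids with their own enzymes, and peroxins build the organelle. Thyroid hormone is known to raise hepatic fatty acid oxidation, and in rat liver Cpt1a is a known target of its receptor, while the receptor PPAR alpha drives many of the same genes.

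The RNA carried hepatocyte markers and markers of other cells. All 9 hepatocyte markers with a probe set were detected, with 4 ratios of T3 to control above 1, 5 below and a median of 0.985. The lowest was that of the albumin gene Alb, at 3972 in control and 3449 with T3, at percentile 2.0. The highest was that of Cps1, at 84.1 and 113, at percentile 97.8. Of 5 bile duct markers 4 were detected, with Krt19 at 1240 and 1079, and the signals of the 5 summed to 3430 and 3050. Of 9 stellate cell and fibroblast markers 7 were detected, with a sum of 2915 and 2621, and Pdgfrb and Col1a2 were called absent. The 7 went both ways. The bright Vim and Tagln had ratios of 0.874 and 0.899, and Col1a1, present with T3 only, 0.888. Acta2, Des and Col3a1 had ratios of 1.21, 1.22 and 1.22, and the dim Lrat 0.532 at percentile 2.4. Of 7 leukocyte markers 2 were detected, with Ptprc and Cd68 absent and sums of 341 and 344. The 2 were Cd14, at 294 and 296, and the dim Cd163, at 4.79 and 7.64, a ratio of 1.60. Of 4 endothelial markers 1 was detected, with Pecam1, Cdh5 and Kdr absent and sums of 62.2 and 61.2. The detected one, Egfl7, was at 31.0 and 47.8 in its probe set that was called present, a ratio of 1.54 at percentile 96.8. Of 3 adipocyte markers 1 was detected, with sums of 22.2 and 22, and that one, Adipoq, was at 16.1 and 8.90, a ratio of 0.553 at percentile 2.0. Each sum adds the brightest probe set of every marker, absent ones included, so it follows its brightest members and compares no amounts between cell types. The part of these cells in the values that follow was not tested. The arrays called 56.7% and 55.6% of all probe sets present, and the log2 ratio of T3 to control had a median of -0.01 over the 16524 probe sets present on both.

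Values are MAS5 signals, array intensities that the authors scaled, and a ratio is the T3 signal over the control signal. A probe set is called present when its matching probes are brighter than their mismatched partners, and a gene is represented by its probe set of highest mean signal among those present on at least 1 array. Signals of different probe sets are not comparable with each other as amounts. As a guide to the scatter, each ratio is given its percentile in the 500 probe sets closest to it in signal, which mixes real and technical differences.

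Of the 61 probe sets 48 were present on both arrays, 3 on the T3 array only, 0 on the control array only and 10 on neither. Of the 46 genes 41 were detected, all 41 on both arrays, and their ratios ran from 0.838 to 1.42 with a median of 1.0, the same as the median over 9670 detected genes. None of the 41 genes was 1.5-fold or more higher or lower by its representing probe set, where 2.81% and 1.68% of all detected genes were. At 1.2-fold 5 of 41 were higher, where 10.2% of all detected genes were, and 0 of 41 were lower, where 7.54% were. Single probe sets were 1.5-fold or more higher in 2 cases, dim further ones of Acsl1 and Acaa2 that only the T3 array called present. These were 2 of 51 detected probe sets, where 4.11% of all detected probe sets were that much higher, so the count was near the background. The 5 genes past 1.2-fold were Cpt1a and Echs1, which act at the entry and in the spiral, and the peroxins Pex11a, Pex16 and Pex11c. The other 36 genes lay within 1.2-fold of control.

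**Figure D1:**
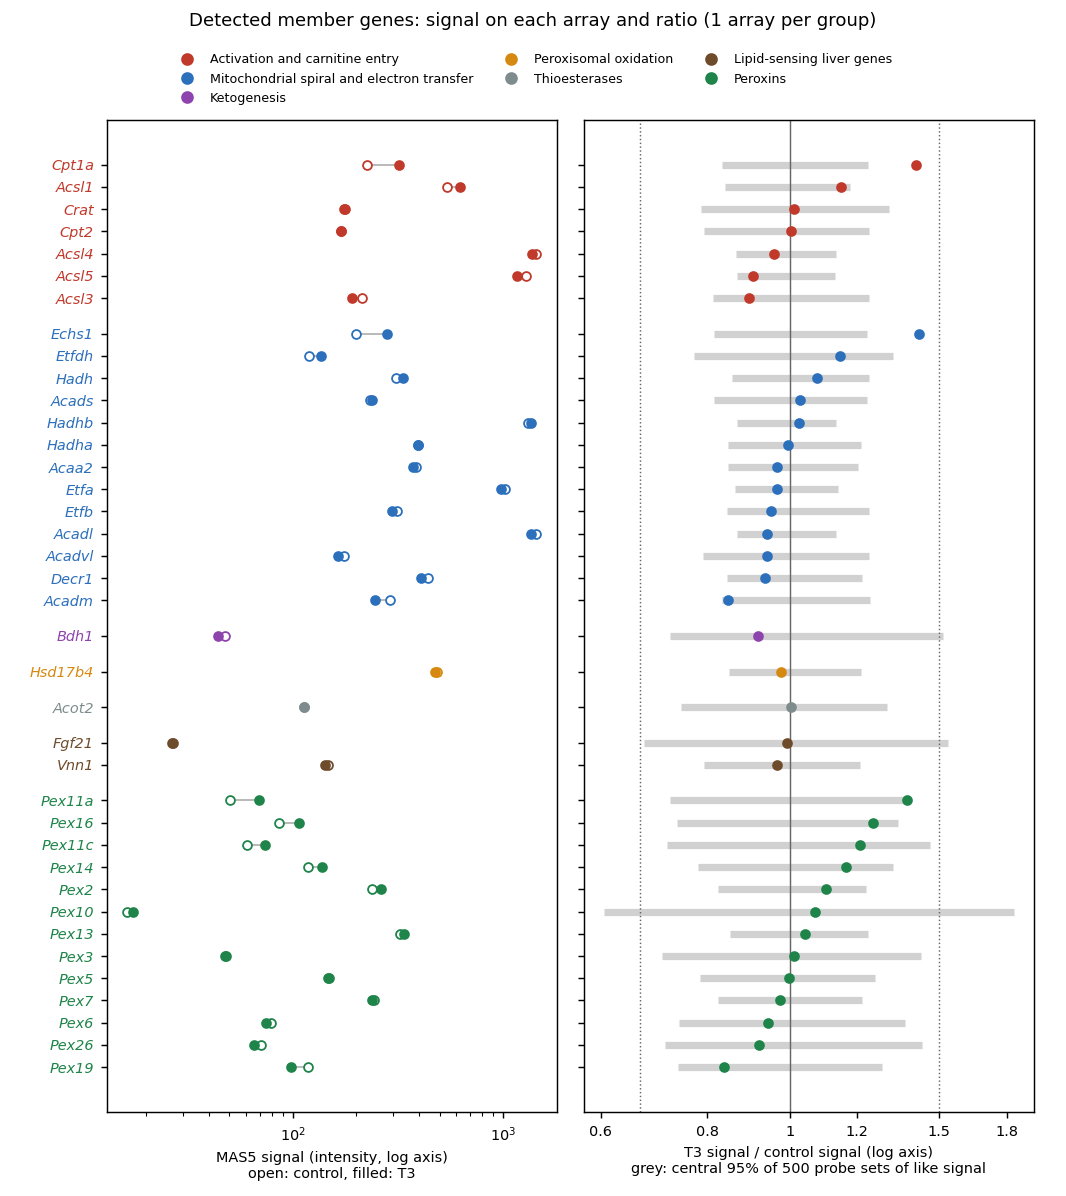
Detected genes by role (38 of 41), with the signal on each array on the left (open circles control, filled circles T3, log axis) and the ratio of T3 to control on the right (log axis). Grey bars are the central 95% of ratios of the 500 probe sets nearest in signal, and dotted lines mark 1.5-fold; Cpt1a, Echs1 and Pex11a lie beyond the grey bar and the other 35 lie on it.

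The promoters of the 3 genes with the highest ratios are shown, since nuclear receptors for thyroid hormone and for fatty acids read the half-site AGGTCA. Each runs 5′ to 3′ from 250 bases before to 50 after the gene's start in RefSeq, build GRCr8, and capitals mark an exact half-site on either strand. Cpt1a lies at chr1:209995910-209996209 on the + strand, Echs1 at chr1:204333457-204333756 on the - strand and Pex11a at chr1:143096442-143096741 on the - strand.
Cpt1a: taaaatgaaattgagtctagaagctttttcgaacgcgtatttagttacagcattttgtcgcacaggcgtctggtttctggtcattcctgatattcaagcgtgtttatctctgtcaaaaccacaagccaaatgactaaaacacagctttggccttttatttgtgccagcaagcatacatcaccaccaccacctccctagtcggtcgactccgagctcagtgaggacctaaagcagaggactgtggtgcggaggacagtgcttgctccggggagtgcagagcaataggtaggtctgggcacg
Echs1: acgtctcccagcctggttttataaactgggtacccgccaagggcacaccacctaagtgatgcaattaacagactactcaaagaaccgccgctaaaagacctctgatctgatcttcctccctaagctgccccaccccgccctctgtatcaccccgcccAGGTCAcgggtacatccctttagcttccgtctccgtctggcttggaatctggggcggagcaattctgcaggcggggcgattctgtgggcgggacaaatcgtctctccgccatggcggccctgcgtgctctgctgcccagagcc
Pex11a: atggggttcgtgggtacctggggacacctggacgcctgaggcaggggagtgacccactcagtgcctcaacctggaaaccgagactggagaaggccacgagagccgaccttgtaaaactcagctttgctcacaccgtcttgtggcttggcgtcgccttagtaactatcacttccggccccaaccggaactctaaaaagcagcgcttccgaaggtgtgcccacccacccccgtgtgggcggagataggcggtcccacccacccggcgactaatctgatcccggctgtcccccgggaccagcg
The Echs1 window holds 1 half-site, 93 bases before the start, and the Cpt1a and Pex11a windows hold none. These letters are a description of the windows and not of binding.

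Promoters were matched for 32 of the 41 detected genes. An exact half-site on either strand stood in 5 of the 32 (Acadvl, Echs1, Hadhb, Hsd17b4 and Pex11g, the current symbol of Pex11c), a share of 15.6%, and in 15.7% of all 27457 promoters. A direct repeat of AGGTCA was also searched on both strands, with at most 2 mismatches over the 12 letters, and matches may overlap an exact half-site. With 4 bases between, the spacing of thyroid hormone receptor sites, it stood in 2 of the 32, Acadvl and Acsl3. That is a share of 6.25%, against 2.88% of all promoters. With 1 base between, the spacing read by PPAR, it stood in 4 of the 32 (Acadvl, Crat, Echs1 and Etfa). That is a share of 12.5%, against 3.71% of all. These shares rest on 2 and 4 genes, and their difference from all promoters was not tested. The matches are shown in the direction of the repeat, with the half-sites in capitals.
Acadvl, 4 bases between: GGATCAccctAGGTCA
Acsl3, 4 bases between: AGGTTActatGGGTCA
Acadvl, 1 base between: AGGTCAgTGGTCA
Crat, 1 base between: AGGACAcCGGTCA
Echs1, 1 base between: AGATCAgAGGTCT
Etfa, 1 base between: AGGGCAaAGGTAA
Of these 5 genes only Echs1 was past 1.2-fold. Acadvl, the one with both repeats, had a ratio of 0.940.

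At the entry to the pathway Cpt1a stood apart from its neighbours. Cpt1a encodes the outer-membrane carnitine palmitoyltransferase that sets the rate of fatty acid entry into liver mitochondria. The control array gave 226 and the T3 array 319, a ratio of 1.41 that lay at percentile 99.2 of probe sets of like signal. A second Cpt1a probe set gave 105 and 135, a ratio of 1.29 at percentile 96.6, so both were higher with T3. Cpt2, the inner-membrane transferase that turns the carnitine ester back into acyl-CoA, was near equal at 170 and 170, with a ratio of 1.0. Crat, which handles short acyl groups, was at 176 and 179, a ratio of 1.01.

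The long-chain acyl-CoA synthetases, which activate fatty acids, lay on either side of 1. Acsl1, the main form of liver, had signals of 543 and 624, a ratio of 1.15 at percentile 96.8, and a second probe set gave 305 and 343, a ratio of 1.12. One more Acsl1 probe set was present with T3 only, at 6.41 against an absent 0.820, which gives at least 3.09-fold over the lowest present control signal of 2.07. Its detection p-value with T3 was 0.0461, the highest that was still called present in the file, and both bright Acsl1 probe sets had far smaller ratios. Acsl5 was on the other side in both of its probe sets, at 1294 and 1172 (ratio 0.905) and at 374 and 324 (ratio 0.865, percentile 3.60). Acsl3 was at 215 and 192, a ratio of 0.895, and Acsl4, which prefers arachidonic acid, at 1437 and 1377, a ratio of 0.958. The 7 genes of activation and carnitine entry had a median ratio of 1.0, with 4 above 1 and 3 below. Of all 9670 detected genes 4841 were above 1 and 4829 below.

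In the mitochondrial spiral 1 of 13 detected genes was past 1.2-fold and 8 of 13 lay below 1, with a median ratio of 0.966. Of all 9670 detected genes 10.2% were 1.2-fold higher, 7.54% were 1.2-fold lower and 4829 lay below 1. With 13 genes these counts cannot be set apart from those shares. The gene past 1.2-fold was Echs1, the short-chain enoyl-CoA hydratase of the second step, at 199 and 283, a ratio of 1.42 at percentile 99.4. Echs1 has 1 probe set, so no second measurement stands beside it. The other 12 of these 13 genes had ratios from 0.846 to 1.14.

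Acyl-CoA dehydrogenases take the first step, each for its own chain length. Acadm, the medium-chain enzyme, had signals of 291 and 246, a ratio of 0.846 at percentile 3.20, the lowest ratio of the spiral. Acadl, the long-chain enzyme, was at 1443 and 1358 (ratio 0.941), Acadvl, the very long-chain enzyme, at 175 and 165 (ratio 0.940) and Acads, the short-chain enzyme, at 233 and 239 (ratio 1.03). The trifunctional protein, which completes the spiral for long chains, is encoded by divergent neighbours that share 200 bases of their promoter windows (chr6:31907551-31907750, GRCr8). Its alpha subunit gene Hadha was at 397 and 395, a ratio of 0.997, and its beta subunit gene Hadhb at 1321 and 1355, a ratio of 1.03, so both subunits were near equal between the arrays. Hadh, the short-chain hydroxyacyl-CoA dehydrogenase, had a ratio of 1.08 (312 and 336). Acaa2, the thiolase of the last step, was at 387 and 374, a ratio of 0.966, and a dim second probe set, at an absent 5.36 and a present 9.13, gave at least 1.70-fold.

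Decr1, the dienoyl-CoA reductase for unsaturated chains, was at 438 and 410, a ratio of 0.936. The electron transfer flavoprotein genes Etfa (1019 and 984, ratio 0.966) and Etfb (312 and 297, ratio 0.951) lay just below 1. Etfdh, whose product passes their electrons to ubiquinone, was at 120 and 137, a ratio of 1.14 at percentile 89.4. The enoyl-CoA isomerase genes Eci1 and Eci2 stand in the file under older symbols and were matched by gene number. They are not among the 13 spiral genes or the 41 genes counted above, nor is Eci2 among the 5 past 1.2-fold. Eci1 had signals of 658 and 712 in its detected probe set, a ratio of 1.08, and Eci2, active in mitochondria and peroxisomes, had 307 and 374, a ratio of 1.22 at percentile 96.8.

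**Figure D2:**
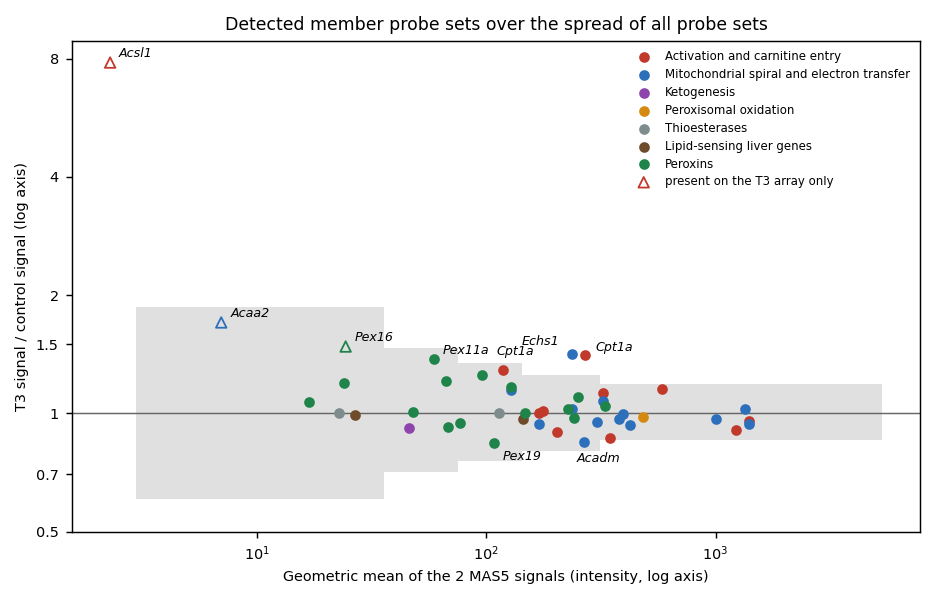
Detected member probe sets of the genes reported, each at its geometric mean signal (x, log axis) and its ratio of T3 to control (y, log axis), coloured by role, with triangles for the 3 present on the T3 array only, drawn at their measured ratio. The grey steps are the central 95% of ratios in 5 bins of signal, over all probe sets that both arrays detected, 0.606 to 1.86 in the dimmest and 0.854 to 1.19 in the brightest; the brighter Cpt1a probe set and Echs1 are the filled points above the steps.

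Bdh1, the mitochondrial dehydrogenase that makes beta-hydroxybutyrate, was at 48.0 in control and 44.1 with T3. Its ratio of 0.919 lay at percentile 31.0 of probe sets of like signal, well inside their spread. On the list of further pathway genes, Acat1, which condenses acetyl-CoA at the start of ketogenesis, was at 245 and 248, a ratio of 1.01. Slc16a6, a monocarboxylate transporter known in zebrafish for hepatic ketone body export, was at 58.7 and 76.7, a ratio of 1.31 at percentile 93.2. Slc16a1 was at 351 and 318, a ratio of 0.906.

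Of the peroxisomal oxidation genes Hsd17b4, the multifunctional enzyme for branched and very long chains, was at 487 and 476, a ratio of 0.977. Ehhadh, the other multifunctional enzyme and a known PPAR alpha target, was absent on both arrays (17.7 and 16.5). The thiolase Acaa1 (Acaa1a) was measured by a probe set that carries a second symbol as well, at 357 and 314, a ratio of 0.880, so that value cannot be given to the gene alone.

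Peroxins had 16 of 17 genes detected, a median ratio of 1.04, 10 genes above 1 and 6 below. Of all 9670 detected genes 4841 were above 1 and 4829 below, and 16 genes are too few to set apart from that. Pex5l, a neuronal relative of Pex5, was the one not detected. Pex11a and Pex11c belong to the family that divides and enlarges peroxisomes, and both were above 1. Pex11a, a known PPAR alpha target, was at 50.6 and 69.5, a ratio of 1.37 at percentile 98, and its second probe set at 22 and 26.3, a ratio of 1.2. Pex11c was at 61.0 and 73.9, a ratio of 1.21.

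Genes that place membrane proteins differed from each other. Pex16 was at 85.8 and 107 (ratio 1.25, percentile 94.6), and its second probe set, marginal in control at 20.1 and present with T3 at 29.7, gave at least 1.48-fold. Pex3 was near equal at 47.9 and 48.4, a ratio of 1.01. Pex19, the chaperone of these proteins, was at 118 and 98.8, a ratio of 0.838 at percentile 8.2, the lowest of the 41 genes. A Pex19 probe set found by gene number gave 0.999, so the lower value did not recur in it. A brighter probe set that carries a second symbol as well was at 261 and 242, a ratio of 0.928 at percentile 22.2.

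Pex2 and Pex10 belong to the ubiquitin ligase that marks the import receptor. Pex2 had ratios of 1.1 and 1.02 in its probe sets and Pex10 a ratio of 1.07, all above 1. In the docking complex Pex14 was at 119 and 138, a ratio of 1.16 at percentile 91.0, and Pex13 had a ratio of 1.04. The receptors that carry cargo in, Pex5 and Pex7, had ratios of 1.0 and 0.975. Pex6, an ATPase that pulls the receptor out again, was at 0.943 times control, and its membrane anchor Pex26 at 0.921 times control.

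**Figure D3:**
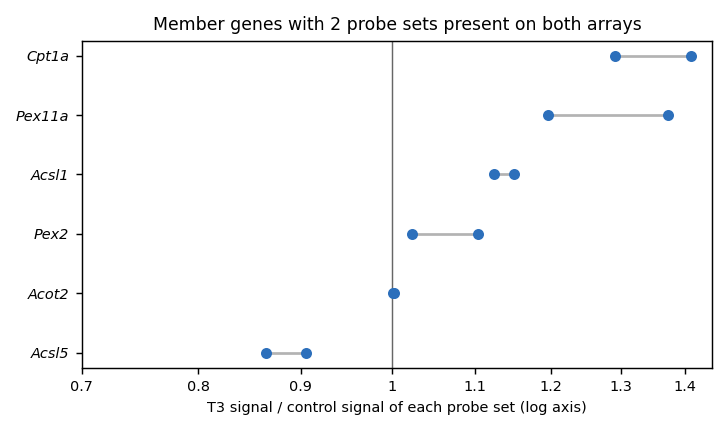
Ratio of T3 to control (x, log axis) for 6 of the 7 genes with 2 probe sets present on both arrays, 1 point per probe set joined by a line. Both points of each gene lie on the same side of 1, with Cpt1a at 1.29 and 1.41 at the top and Acsl5 at 0.865 and 0.905 at the bottom.

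Repeat probe sets present on both arrays gave a second measurement for 7 genes on the same RNA. Both went the same way in 7 of 7, and their ratios differed by a median of 1.08-fold. For Acot2 both ratios were 1.0, so its side carries little. Second probe sets present with T3 only were left out, with Acaa2 at 0.966 and 1.70 and Pex16 at 1.25 and 1.48. Over all genes, 57.2% of 3911 such pairs in 2270 genes went the same way and differed by a median of 1.12-fold. Detected probe sets of the set were brighter, with a median signal of 170 against 87.5 over all, so the pairs are not compared at like signal. Probe sets of a gene share the RNA sample, so they say nothing of the spread between cultures. In no detected gene of the set did probe sets lie past 1.2-fold on opposite sides.

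Acyl-CoA thioesterases cut acyl-CoA back to the free acid. Acot2, the mitochondrial form, was near equal in both probe sets, at 113 and 113 (ratio 1.0) and at 22.8 and 22.8 (ratio 1.0), and another found by gene number, at 71.4 and 80.9, gave 1.13. The cytosolic Acot1 and Acot12 were absent on both arrays and have no ratio here. A few liver genes that answer to fatty acids were also followed. Vnn1, the pantetheinase vanin and a known PPAR alpha target, was at 147 and 142, a ratio of 0.966. Fgf21, a hepatic hormone of fasting that thyroid hormone raises in mouse liver, was at 26.9 and 26.7, a ratio of 0.992. Fabp1, the fatty acid binding protein of liver cytosol, was called absent on both arrays with signals of 0.716 and 2.19. Acot1, Acot12, Ehhadh, Pex5l and Fabp1 were not detectable on these arrays, which does not show that their RNA was lacking.

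The genes of the pathway outside the set were taken from a list of 92, of which 78 had a named probe set and 62 were detected. Their median ratio was 1.01. At 1.5-fold 0 of 62 were higher, where 2.81% of all detected genes were, and 2 of 62 were lower, where 1.68% were. The 2 were Agps, an enzyme of ether lipid synthesis in peroxisomes, at 63.8 and 41.9 (ratio 0.657, percentile 1.8), and Acacb, whose malonyl-CoA restrains carnitine entry, at a present 16.5 and an absent 10.1, where the T3 signal was at least 1.6-fold lower. The control call of Acacb had a detection p-value of 0.0461, the highest still called present. With a pseudocount of 64 the log2 ratios were -0.27 for Agps and -0.12 for Acacb. At 1.2-fold 6 of 62 were higher, where 10.2% of all detected genes were, and 3 of 62 were lower, where 7.54% were. Among the higher ones, beside Slc16a6, were the urate oxidase gene Uox, the carnitine palmitoyltransferase gene Cpt1c, the medium-chain acyl-CoA synthetase gene Acsm1 and Mlycd, whose product destroys malonyl-CoA. Uox was at 320 and 440, a ratio of 1.37 above all of the 500 probe sets of like signal. Mlycd was at 132 and 171, a ratio of 1.3 at percentile 98.2. Cpt1c was at 30.6 and 40.9 (ratio 1.33, percentile 89.8) and Acsm1 at 58.8 and 78.3 (ratio 1.33, percentile 94.6). Both lay within the central 95% of probe sets of like signal.

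Slc25a20, which carries acylcarnitine across the inner membrane between the Cpt1a and Cpt2 steps, was at 190 and 181, a ratio of 0.952. The regulator genes Ppara and Ppargc1a and the PPAR alpha target Pdk4 were absent on both arrays. Of 10 detected genes listed as other PPAR alpha targets 0 were past 1.2-fold, a count too small to set against the 10.2% higher and 7.54% lower of all detected genes. Angptl4 was at 108 and 112, a ratio of 1.04. Cd36, a fatty acid transporter, was at 958 and 1120, a ratio of 1.17 at percentile 98, above the central 95% of probe sets of like signal, and its second probe set had a ratio of 1.09. Within the list the median ratios were 1.05 for mitochondrial, 0.985 for ketone body, 1.01 for peroxisomal and 1.04 for regulator genes.

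**Figure D4:**
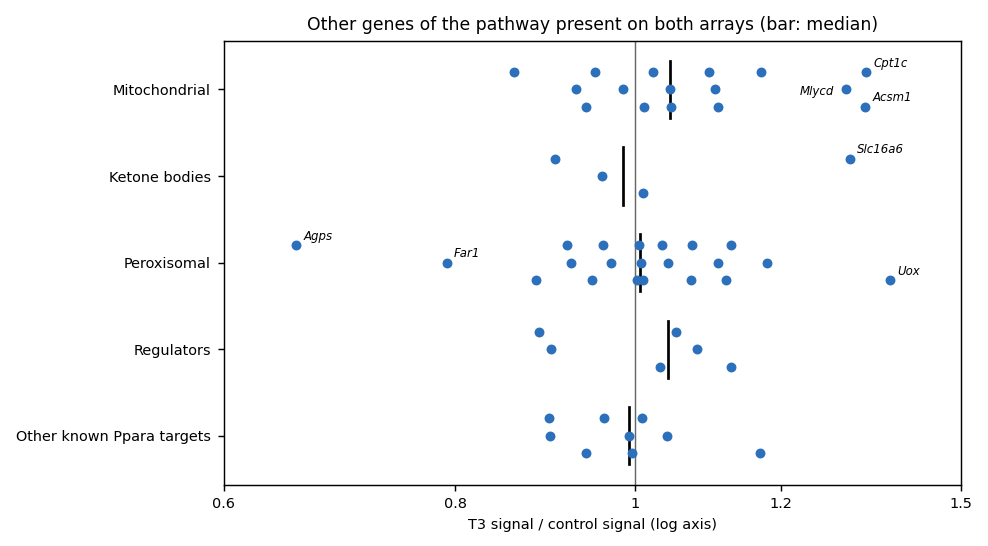
Ratio of T3 to control (x, log axis) of pathway genes outside the set that were present on both arrays, by list, 1 point per gene with a bar at each whole list's median and names past 1.2-fold. Uox at 1.37 lies farthest to the right and Agps at 0.657 farthest to the left.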

How the data were processed

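RNA of the control and of the T3 cells was measured on Affymetrix Rat Genome 230 2.0 arrays, 1 array each. The authors deposited 1 MAS5 signal per probe set, a linear intensity scaled per array, per the file headers. Affymetrix Expression Console is named in the submitters' processing notes, with neither its version nor a scaling target. The deposited detection p-value and its call of present, marginal or absent were used as given. The deposited ratio of T3 over control equalled the quotient of the signals, and the deposited series value table held the same intensities. The 57 array controls among 31095 probe sets were dropped. No pseudocount was added. A gene was counted as past 1.5-fold or 1.2-fold when the brighter array called it present. Where only that array did, the fold is a bound against the higher of the other signal and the lowest present signal on that array. Members were found by the symbol in the file with the endings _predicted and _mapped removed. Other genes were named by gene number with the RefSeq table of assembly GRCr8, which gave 19169 probe sets 1 symbol, while 599 had several and 11270 none. Members and lists were chosen with earlier results of these data known. Named were the members past 1.5-fold, the 12 of largest change, the 8 of highest signal and a fixed few, and of the other genes those past 1.5-fold, the 6 of largest change and a fixed few. Angptl4, Cd36, Slc16a1 and Mlycd and, in the closing section, Far1, Gnpat, Hao1, Cat and Plin2 were chosen after their values were seen. The ranking was checked on simulated data, with noise as wide as the spread of these arrays. The planted changes were larger than any of the counted genes showed, so the check does not cover ratios this small. Python 3.11.15, pandas 2.3.3, numpy 2.4.6 and statsmodels 0.14.6 were used. Precision is limited by having 1 array per group, and signals carry no counting depth. A few genes of the set and of the list, counted in the totals and medians, are not reported here by name or drawn.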

Additional observations from a re-analysis of the deposited data

How the results depend on the processing

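With 1 array per group there was no replicate to leave out and no paired analysis was possible because each group has 1 array. The 12 alternatives gave 131 values for the counts, medians and Bdh1. Of these, 123 stayed within 1.5 times the count or within the spread of the genes. Neither Bdh1 nor any median was past 1.5-fold as reported, and a turn to the other side was scored only for values past it. The median log2 ratio of all members, -0.0006 as reported and so near 0, ran up to 0.013 over the alternatives and did change side. The count of genes 1.5-fold higher, 0 as reported, was 3 without a detection filter and 2 when each gene was taken by its most changed probe set. Those 2 were the dim probe sets of Acsl1 and Acaa2. Of all genes 11.2% were 1.5-fold higher without the filter and 3.81% by the most changed probe set. The count 1.2-fold higher, 5 as reported, was 2 with a pseudocount of 64, 9 without a detection filter and 3 after genes under the median signal were dropped. The shares of all genes in these settings, in the same order, were 1.70%, 20.6% and 4.35%, so the background moved as well. The count 1.2-fold lower, 0 as reported, was 1 with the median over a gene's probe sets and 1 with the most changed probe set. Of all genes 7.77% and 12.2% were that much lower in these settings. Without a detection filter the thioesterase median was 0.86 on the log2 scale, since absent Acot1 and Acot12 then enter. The log2 ratio of Cpt1a ran from 0.40 to 0.51, that of Echs1 from 0.40 to 0.52 and that of Pex11a from 0.22 (pseudocount of 64) to 0.46 over the alternatives.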

Other observations

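Ether lipids are begun in peroxisomes, and their enzyme genes were picked out after their values were seen. Agps lay at 0.657 times control, and Far1, the reductase that makes the fatty alcohol they need, at 75.2 and 59.5, a ratio of 0.792 at percentile 6.40. Gnpat, which works beside Agps, was near equal in both probe sets, with ratios of 1.01 and 1.03. Oxidases and the catalase of the peroxisome differed too, with Uox at 1.37, Hao1 at 0.971 and the catalase gene Cat at 841 and 744, a ratio of 0.885 at percentile 4.0. The brightest probe set of the lipid droplet gene Plin2 had a ratio of 0.963 (1384 and 1332), while a dim one had 1.86 (16 and 29.7).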
